A study of Lactuca sativa with 32 samples.

Results

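Behind a PTB7-Th:IEICO-4F solar filter and without adjustment of the light intensity, 200 lettuce leaf genes were set apart from every other plant of the same experiment. They were picked from 43717 listed genes by their CPM, the number of reads of a gene scaled to a library of 1e6 reads. First, 20224 genes had a mean of 1 CPM or more over the 16 height controlled (HC) plants. Of these, 184 genes (0.91%) had all 4 HC PTB7-Th:IEICO-4F plants above the other 12 HC plants, and 352 genes (1.74%) had all 4 below them. Next, 22 genes were dropped because the 4 PAR controlled (PC) plants behind the same filter lay on that side of all 4 PC Control plants too. A further 4 genes were dropped because all 16 HC plants lay on one side of all 16 PC plants. Of the 510 genes left, the 200 with the largest difference of mean log2(CPM + 0.1) are the members, 62 of them higher and 138 lower behind the filter. Folds of HC PTB7-Th:IEICO-4F against the other HC plants are 2 to the power of that difference, and are not ratios of mean CPM. Because these values chose the members, the differences among HC plants, between PC PTB7-Th:IEICO-4F and PC Control, and between HC and PC plants are described here without a test.

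The plants were red oak leaf lettuce (Lactuca sativa) under ceramic metal halide and incandescent lamps. Light reached them through an organic photovoltaic (OPV) filter, a see-through film of the dyes and polymers used in organic solar cells, or through clear glass (Control). The filter groups were HC PTB7-Th:IEICO-4F, HC FTAZ:IT-M, HC FTAZ:PCBM, PC PTB7-Th:IEICO-4F, PC FTAZ:IT-M and PC FTAZ:PCBM, and the glass groups were HC Control and PC Control. PAR is photosynthetically active radiation: its intensity was adjusted in the PC experiment and left unadjusted in the HC one. Each group held 4 plants, with 1 leaf library per plant, taken at the final harvest in week 5. The protocol describes 16 plants per box with pots rotated every 2 days, and gives no second box per treatment, so the box and the filter cannot be told apart.

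Plants use light both as energy and as a signal. Chlorophyll captures mainly blue and red light for photosynthesis, phytochromes sense the balance of red and far-red light, and cryptochromes and phototropins sense blue light. Leaf transcripts for photosynthesis, pigment synthesis, growth and the daily clock respond to both the amount and the colour of light. In the PTB7-Th:IEICO-4F blend, the acceptor IEICO-4F absorbs in the near infrared, whereas PCBM is a fullerene acceptor and IT-M a non-fullerene one. The count files identify genes by number alone, so no function is attached to any member below. A bulk leaf library also cannot tell fewer cells of a type from less RNA per cell.

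The 32 libraries held between 47289413 and 48764530 counted reads each, and 3 reads corresponded to 0.0615 to 0.0634 CPM. The HC PTB7-Th:IEICO-4F plants varied more among themselves than the other HC groups. Their median standard deviation (SD) over the 20224 genes was 0.188 on the log2 scale, against 0.142 in HC FTAZ:IT-M, 0.120 in HC FTAZ:PCBM and 0.136 in HC Control. The median gene lay 0.16 below the PC Control mean in HC PTB7-Th:IEICO-4F replicate 4, and between −0.08 and 0.01 in replicates 1 to 3. With library sizes scaled by TMM (the trimmed mean of M values), which adjusts for such shifts, the rule kept 91 higher and 109 lower genes, against 62 and 138 without it. Column headers number the HC PTB7-Th:IEICO-4F libraries 29 to 32 and the other HC libraries 5 to 16. The PC FTAZ:IT-M libraries are numbered 1 to 4 and the other PC libraries 17 to 28. What the numbers stand for is not given in the sources used here, and within HC they cannot be told apart from the filter. The same holds for PC FTAZ:IT-M against PC Control, so the calls in that comparison share this limit.

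The differences that define the members were moderate. The median higher member was 1.47-fold above the other HC plants (0.55 on the log2(CPM + 0.1) scale, range 0.43 to 1.40), and the median lower member stood at a fold of 0.658 (−0.60, range −1.36 to −0.42). For comparison, the median of the 20224 genes was −0.02. A change of 2-fold or more was reached by 3 higher and 11 lower members. Fewer reached it on a log2(CPM + 1) scale, where for example LOC111889185 went from 1.29 to 0.96 and LOC111901018 from −1.19 to −0.91. The gap between the nearest HC PTB7-Th:IEICO-4F plant and the nearest other HC plant had a median of 0.08 among higher members and 0.12 among lower members. Single plants contributed unevenly: replicate 3 was the farthest out in 34 of the 62 higher members and replicate 4 in 82 of the 138 lower ones. At the limit of 200 genes, LOC111892483 (0.43) and LOC111889616 (−0.42) were the last inside, while LOC111914264 (−0.42), LOC111901567 (−0.42) and LOC111912805 (−0.42) were the first outside.

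**Figure D1:**
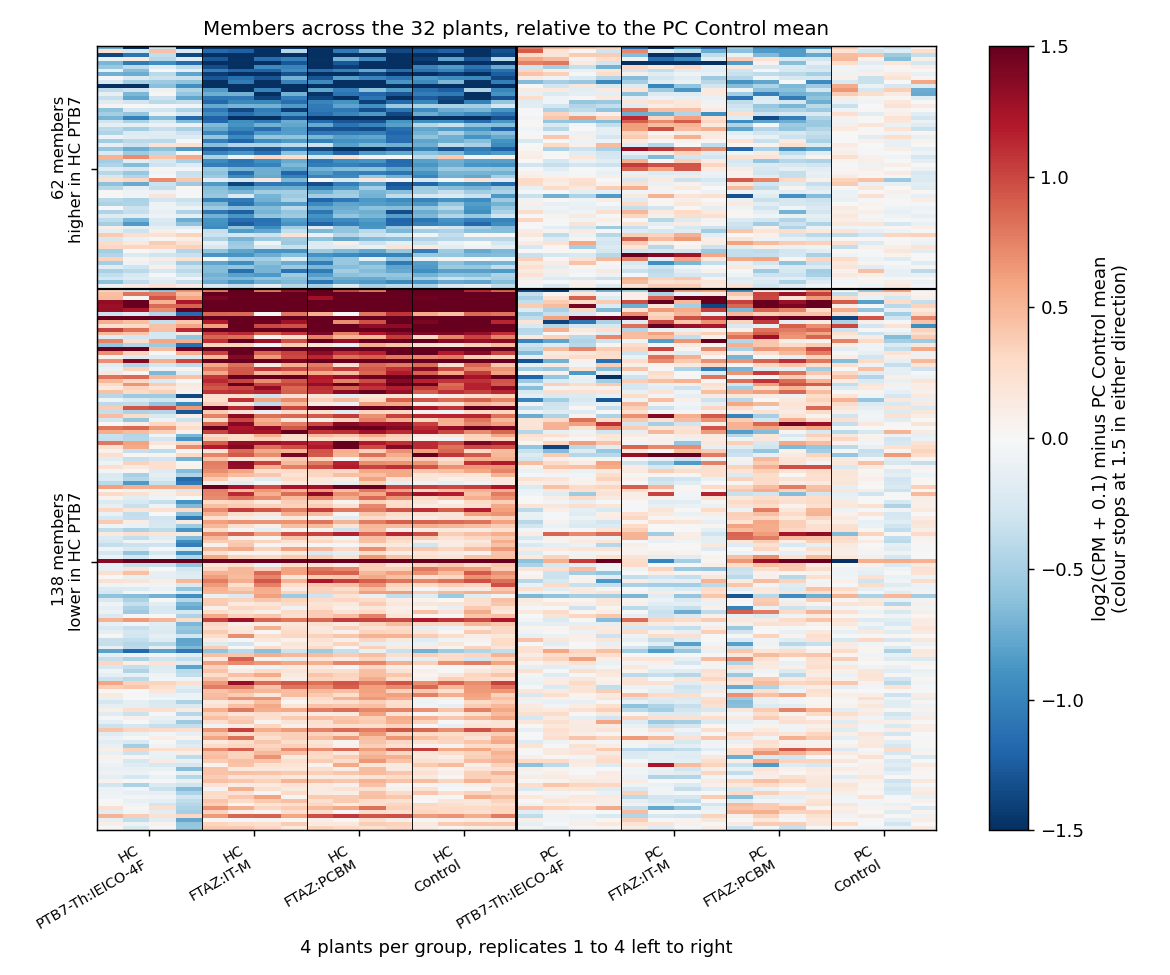
Each row is a member and each column a plant; colour gives log2(CPM + 0.1) minus the mean of the 4 PC Control plants. The 62 higher members are mostly blue in the 12 other HC plants and mostly paler in the HC PTB7-Th:IEICO-4F plants, and the 138 lower members are mostly red in those 12 plants and paler, or blue in replicate 4, behind the filter.

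Among the higher members, LOC111900546 had the largest difference. This protein-coding gene lies at NW_019673459.1:204095-207024 on the minus strand of the Lsat_Salinas_v7 assembly, with 955 exonic bases. It had 16.9, 9.20, 22.6 and 9.78 CPM in the HC PTB7-Th:IEICO-4F plants, against a lowest, median and highest of 3.46, 5.17 and 8.86 CPM in the other 12 HC plants. The fold was 2.64, but the weakest HC PTB7-Th:IEICO-4F plant exceeded the highest of the others only narrowly. Its levels in the PC experiment were higher still, with means of 40.1 ± 6.01 CPM behind PTB7-Th:IEICO-4F and 28.6 ± 5.84 CPM in PC Control (SD, n = 4 each).

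LOC111889185 (NW_019681325.1:153975-156409, minus strand) had 4.87, 3.40, 5.62 and 3.49 CPM in HC PTB7-Th:IEICO-4F, against 1.10, 1.67 and 3.02 CPM as the lowest, median and highest of the other HC plants. LOC111900013 (NW_019673370.1:567992-569113, minus strand) had 44.3, 53.1, 88.4 and 44.4 CPM in HC PTB7-Th:IEICO-4F, against 15.9, 24.2 and 44.2 CPM in the other HC plants. The groups nearly touched in this gene, since HC Control replicate 4 stood at 44.2 CPM. A clear gap was present in LOC111897682 (NW_019683453.1:997448-999356, minus strand), with 10.2, 10.02, 12.8 and 9.68 CPM in HC PTB7-Th:IEICO-4F against 4.12, 5.77 and 7.12 CPM in the other HC plants. All 4 filter plants were above 9 CPM there and no other HC plant was above 8 CPM.

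LOC111897730 averaged 3.09 ± 0.524 CPM in HC PTB7-Th:IEICO-4F and 1.55 ± 0.428 CPM in the other HC plants (SD, n = 4 and 12). LOC111915585 averaged 67.8 ± 12.1 CPM in HC PTB7-Th:IEICO-4F and 37.2 ± 3.54 CPM in the other HC plants (SD, n = 4 and 12). LOC111877664 averaged 7.78 ± 0.846 CPM in HC PTB7-Th:IEICO-4F and 4.34 ± 0.654 CPM in the other HC plants. It overlaps LOC111877674 on the opposite strand, and the headers show no strand option, so its reads are uncertain between the 2 genes. The remaining genes of the 10 largest differences, LOC111918586, LOC111904766 and LOC111907130, are described with the PC plants below.

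The most abundant higher member was LOC111890922 (NW_019681808.1:5390005-5392240, minus strand, 1592 exonic bases). It had 2849, 2739, 3347 and 3153 CPM in HC PTB7-Th:IEICO-4F, against 1882, 2034 and 2251 CPM in the other HC plants, a 1.47-fold difference. Its PC Control plants, at 3319, 3419, 3243 and 3053 CPM, overlapped the HC PTB7-Th:IEICO-4F plants and lay above the other HC plants. LOC111901323 (NW_019673681.1:2091614-2093023, minus strand) had 420.7, 287.6, 463.2 and 308.5 CPM in HC PTB7-Th:IEICO-4F, against 141.6, 218.2 and 281.0 CPM in the other HC plants. Its highest other HC plant came within 7 CPM of the lowest filter plant.

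The lower members were led by LOC111907470 (NW_019674883.1:291006-293281, minus strand), with 2.01, 1.22, 1.01 and 2.51 CPM in HC PTB7-Th:IEICO-4F and 2.78, 3.75 and 13.4 CPM as the lowest, median and highest of the other HC plants. The fold was 0.391, and the plant at 13.4 CPM was HC FTAZ:IT-M replicate 2. LOC111882643 (NW_019679917.1:257105-264333, minus strand, 2011 exonic bases) was both strongly lowered and abundant. It had 124.1, 158.3, 155.0 and 125.2 CPM in HC PTB7-Th:IEICO-4F, against 272.0, 334.4 and 468.0 CPM in the other HC plants, a fold of 0.409. The gap between the nearest plants, 0.78 on the log2 scale, was the widest of all 200 members.

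LOC111901018 (NW_019673661.1:845061-847277, minus strand) had 1.99, 2.66, 1.44 and 1.47 CPM in HC PTB7-Th:IEICO-4F, against 2.75, 4.54 and 6.80 CPM in the other HC plants. LOC111906383 averaged 29.1 ± 7.62 CPM in HC PTB7-Th:IEICO-4F and 64.9 ± 13.7 CPM in the other HC plants (SD, n = 4 and 12). It overlaps LOC111906384 on the opposite strand, so the same doubt about strand applies. LOC111897754 (NW_019683456.1:1626207-1628195, plus strand) had 3.96, 11.98, 8.64 and 9.91 CPM in HC PTB7-Th:IEICO-4F, against 12.6, 18.2 and 27.2 CPM in the other HC plants. Replicate 1 was far below the other filter plants here.

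The other 5 of the 10 largest decreases were weakly expressed genes. LOC111914470 averaged 0.440 ± 0.139 CPM in HC PTB7-Th:IEICO-4F and 1.19 ± 0.317 CPM in the other HC plants. LOC111905572 averaged 0.805 ± 0.249 CPM in HC PTB7-Th:IEICO-4F and 2.07 ± 0.769 CPM in the other HC plants. LOC111890527 averaged 1.11 ± 0.287 CPM in HC PTB7-Th:IEICO-4F and 2.67 ± 0.760 CPM in the other HC plants. At such levels the pseudocount shapes the logarithm, and with a pseudocount of 1 the differences of these 3 genes were −0.60, −0.74 and −0.78, against −1.26, −1.23 and −1.17 with 0.1. LOC111920397 averaged 1.02 ± 0.276 CPM in HC PTB7-Th:IEICO-4F and 2.32 ± 0.529 CPM in the other HC plants, and LOC111897810 averaged 0.821 ± 0.102 CPM and 1.95 ± 0.637 CPM in the same groups (SD, n = 4 and 12 throughout).

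The most abundant lower members besides LOC111882643 were LOC111913734 and LOC111898815. LOC111913734 (NW_019672258.1:1075499-1081548, minus strand, 3440 exonic bases) had 988.5, 1063, 1019 and 981.2 CPM in HC PTB7-Th:IEICO-4F, against 1158, 1624 and 2003 CPM in the other HC plants. LOC111898815 (NW_019673076.1:108859-109717, minus strand, 722 exonic bases) had 230.3, 201.9, 144.0 and 179.7 CPM in HC PTB7-Th:IEICO-4F, against 268.0, 328.0 and 423.4 CPM in the other HC plants. In both genes the filter plants were well separated from the middle of the other HC plants, with folds of 0.648 and 0.568.

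**Figure D2:**
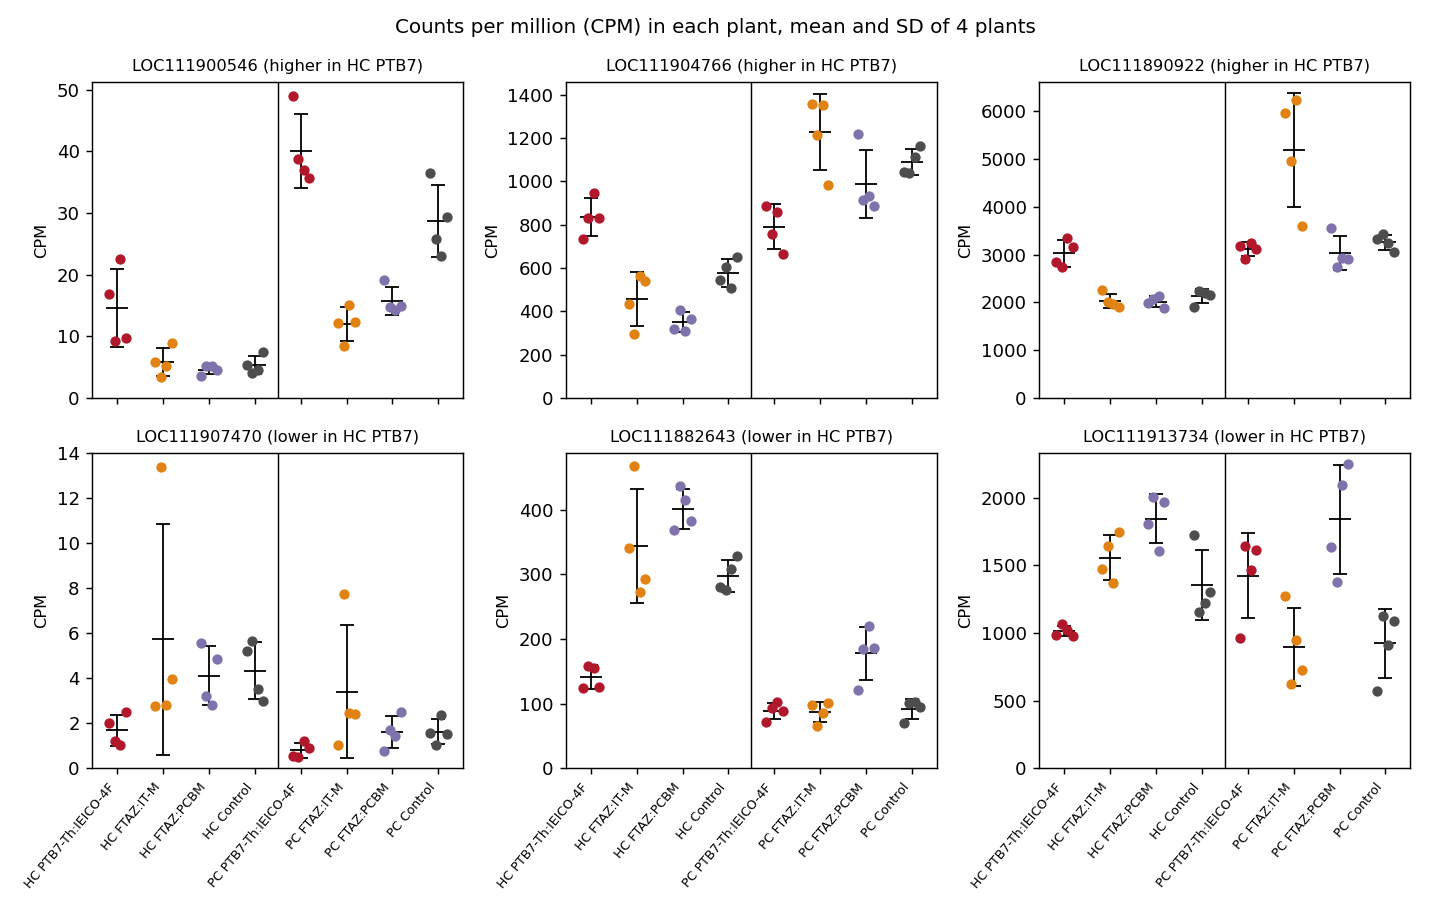
Points give CPM in each of the 32 plants for 3 higher members (top row) and 3 lower members (bottom row) on linear axes, with a bar for the mean and SD of 4 plants. HC PTB7-Th:IEICO-4F is the first group of each panel; the LOC111882643 plants there lie between 124.1 and 158.3 CPM, below the 272.0 CPM of the lowest other HC plant.

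Set against the PC experiment, it was the other 3 HC groups that stood farther from PC Control in most higher members. The median higher member, on the log2(CPM + 0.1) scale, was 0.30 below the PC Control mean in HC PTB7-Th:IEICO-4F, but 0.90 below in HC FTAZ:IT-M, 0.95 below in HC FTAZ:PCBM and 0.76 below in HC Control. Lower members mirrored this less strongly. Their medians were −0.13 in HC PTB7-Th:IEICO-4F and 0.42, 0.45 and 0.42 in HC FTAZ:IT-M, HC FTAZ:PCBM and HC Control. Over the 20224 genes the 4 medians lay between −0.06 and 0.00. The PC Control mean was nearer to the HC PTB7-Th:IEICO-4F mean than to the other HC mean in 57 of 62 higher members (91.9%). This held in 99 of 138 lower members (71.7%) and in 63.7% of the 20224 genes. For PC PTB7-Th:IEICO-4F the shares of higher members, lower members and all genes were 93.5%, 63% and 59.1%. They were 90.3%, 66.7% and 63.6% for PC FTAZ:IT-M, and 87.1%, 52.2% and 60.4% for PC FTAZ:PCBM. The nearness in higher members was thus not particular to PC Control. In lower members the shares stayed closer to those of all genes, and for PC FTAZ:PCBM the share was below that of all genes.

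The position of PC Control differed in detail between the lists. In 53 higher members PC Control lay past the HC PTB7-Th:IEICO-4F mean, so these genes were lower in all HC groups than in PC Control, and least so behind the filter. In the other 9 higher members it lay between the HC means. Among the lower members, PC Control lay past the HC PTB7-Th:IEICO-4F mean in 49, between the HC means in 87 and beyond the other HC mean in 2. LOC111882643 illustrates the first kind among lower members, with 92.1 ± 15.2 CPM in PC Control, below the 141 ± 18.5 CPM of HC PTB7-Th:IEICO-4F (SD, n = 4 each). The HC and PC plants also belong to separate experiments, and that difference cannot be told apart from light intensity.

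**Figure D3:**
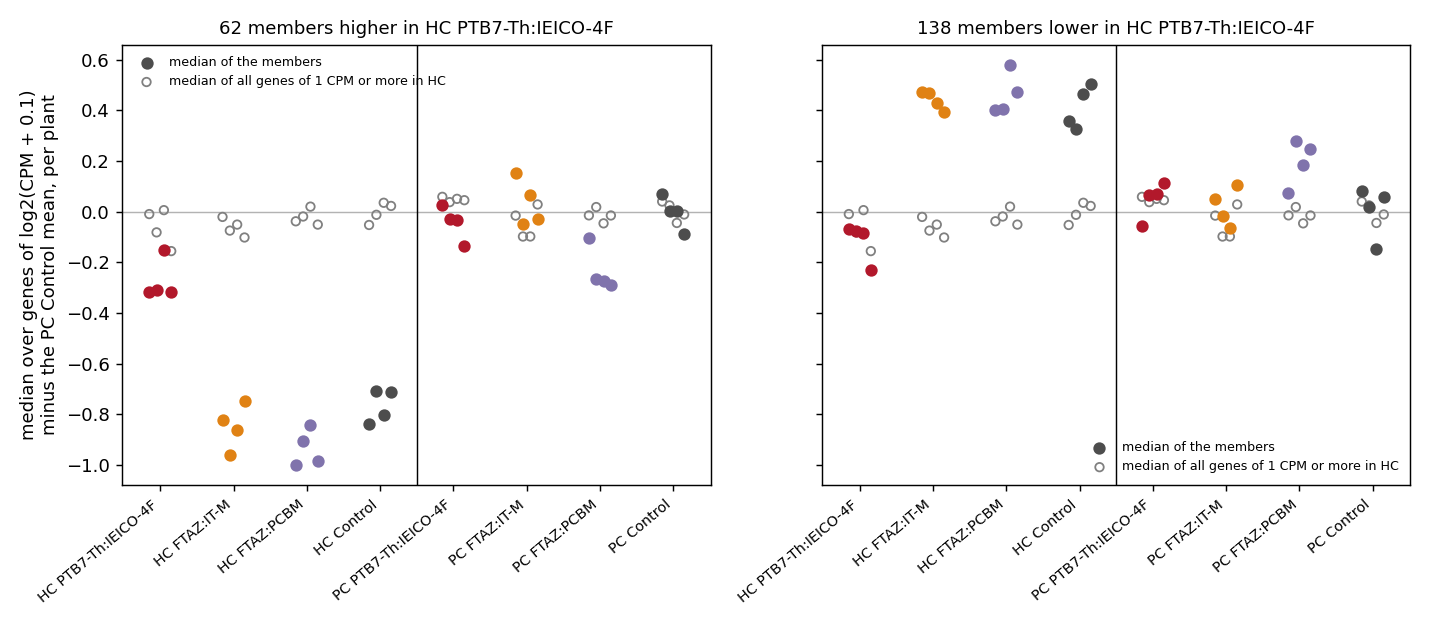
Filled points give, for each plant, the median over the 62 higher members (left) or the 138 lower members (right) of log2(CPM + 0.1) minus the PC Control mean; open grey points give the same for the 20224 genes of 1 CPM or more. Higher members have medians between −0.32 and −0.15 in HC PTB7-Th:IEICO-4F plants and lower values in every other HC plant, while the PC plants lie closer to 0 than those 12 HC plants.

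Within the other HC plants, the median higher member was slightly lower behind the FTAZ filters than under glass. Their median difference from HC Control was −0.09 in HC FTAZ:IT-M, where 13 of 62 were above HC Control, and −0.16 in HC FTAZ:PCBM, where 9 of 62 were above it. HC Control was the nearest of the 3 other groups to HC PTB7-Th:IEICO-4F in 44 of these 62 members. Lower members had medians of 0.02 and 0.03 in the IT-M and PCBM groups of that experiment against HC Control, with 76 and 84 of 138 above it. The medians of the 20224 genes were −0.06 and −0.02 in the same 2 differences. The higher members were thus near all genes in HC FTAZ:IT-M. Shares over all genes are not given for the counts above, so nothing is read from those counts.

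With the light intensity adjusted, the members lay on both sides of PC Control behind the same filter. PC PTB7-Th:IEICO-4F exceeded PC Control in 29 of 62 higher members and 76 of 138 lower members, with median differences of −0.02 and 0.04. Single members differed to either side without complete separation. The leading higher member LOC111900546 stood at 0.49 and the leading lower member LOC111907470 at −0.95, both to the HC side. Lower member LOC111897754 stood at 1.05, to the opposite side. The rule had removed the genes with a complete separation to the HC side, so nothing is read from the lack of them. Complete separation to the opposite side was left in 6 higher and 7 lower members. Over the 20224 genes, PC PTB7-Th:IEICO-4F lay wholly below PC Control in 6.12% and wholly above it in 9.56%. Separations to the opposite side thus made up 9.68% of the higher and 5.07% of the lower members.

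LOC111904766 was the most abundant of these, an opposite pair of differences in a gene at NW_019674277.1:77912-83417 (minus strand). It had 733.4, 830.6, 948.4 and 829.1 CPM in HC PTB7-Th:IEICO-4F, against 293.8, 470.5 and 650.6 CPM as the lowest, median and highest of the other HC plants. In the PC experiment it had 887.1, 758.0, 859.0 and 663.6 CPM behind the filter, against 1042, 1041, 1112 and 1163 CPM in PC Control. PTB7-Th:IEICO-4F plants of both experiments thus overlapped each other, while the Control plants of the experiments did not overlap. LOC111907130 showed the same order at a low level, with 2.56 ± 0.307 CPM in HC PTB7-Th:IEICO-4F against 1.47 ± 0.476 CPM in the other HC plants, and 2.23 ± 0.313 CPM in PC PTB7-Th:IEICO-4F against 3.69 ± 1.17 CPM in PC Control. Among the lower members, LOC111906903 had the largest such contrast in its HC difference, −0.77 in HC and 0.41 in PC. The difference between the experiments was not tested, because the rule used both sides.

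The differences between the FTAZ filters and PC Control were no part of the rule, but they are not independent of it, since it read the PC Control plants to drop 22 genes and all 16 PC plants to drop 4. All 200 members could be tested in both. Behind FTAZ:IT-M, edgeR's quasi-likelihood test called 1777 of 24483 genes against PC Control at a Benjamini-Hochberg adjusted p under 0.05, which is 7.26% (4.03% higher and 3.23% lower). Of the members, 32 were called (16%). In the higher list 15 members rose (24.2%) and 5 fell (8.06%), and in the lower list 10 rose (7.25%) and 2 fell (1.45%). The median log2 fold change was 0.06 in the higher list and 0.07 in the lower list, against 0.00 over all tested genes. The tested genes include weaker ones than the members. With a mean of 5 CPM or more required, 10.9% of 15962 genes and 17% of 165 members were called. Individual libraries mattered here, with 18 to 39 members called when any 1 of the 8 plants was left out. Of these 8 fits, the fewest came without PC Control replicate 2 (18 members and 4.18% of genes) and the most without PC FTAZ:IT-M replicate 4 (39 members and 14.2% of genes). Without PC FTAZ:IT-M replicates 2 and 3, 19 and 21 members were called, against 3% and 3.28% of genes. With these 2 groups alone in the model, 10 members (5%) and 2.01% of genes were called. Had the rule not read the PC plants, an alternative added after seeing the data, its 60 higher and 140 lower genes would include 185 of the members. In that higher list 12 genes rose and 6 fell behind FTAZ:IT-M, and in that lower list 13 rose and 1 fell.

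LOC111918586 (NW_019677590.1:685077-686812, plus strand, 717 exonic bases) had the largest called fall behind FTAZ:IT-M among members with a mean of 1 CPM or more over the 8 plants compared. It had 0.930, 0.853, 0.8285 and 0.751 CPM in PC FTAZ:IT-M, against 4.15, 3.01, 3.85 and 2.82 CPM in PC Control. The groups were far apart, at a log2 fold change of −1.99 (SE 0.31, adjusted p = 0.000361, edgeR). In the HC experiment it had 2.09, 1.58, 1.75 and 1.47 CPM in HC PTB7-Th:IEICO-4F, against 0.294, 0.944 and 1.36 CPM in the other HC plants. LOC111900546, the leading higher member, also fell, to 12.2, 8.38, 15.1 and 12.3 CPM in PC FTAZ:IT-M against 36.5, 25.8, 22.96 and 29.3 CPM in PC Control (−1.20, SE 0.24, adjusted p = 0.00286). LOC111900013 was called lower at −0.96 (SE 0.28, adjusted p = 0.0346), but its adjusted p was 0.136 and 0.123 without PC FTAZ:IT-M replicates 2 and 3, 0.122 and 0.114 without PC Control replicates 1 and 2, and 0.0977 with these 2 groups alone.

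Abundant LOC111890922 rose behind FTAZ:IT-M. It had 5949, 4955, 6230 and 3597 CPM in PC FTAZ:IT-M, against 3319, 3419, 3243 and 3053 CPM in PC Control. Every filter plant was above every control plant, with replicate 4 close to them, and the log2 fold change was 0.73 (SE 0.12, adjusted p = 0.000502, edgeR), with an adjusted p of 0.0665 in the model of these 2 groups alone. LOC111899617, singled out after its values were seen, had the smallest adjusted p of the members. It had 914, 846.3, 770.7 and 485.4 CPM in PC FTAZ:IT-M, against 312.1, 319.1, 335.6 and 328.9 CPM in PC Control (log2 fold change 1.28, SE 0.13, adjusted p = 7.91e-07). Its HC PTB7-Th:IEICO-4F mean was 259.5 CPM, a level below PC Control.

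Of the lower members, LOC111892293 (NW_019682134.1:6570797-6572926, minus strand, 591 exonic bases) had the largest called rise among those with a mean of 1 CPM or more over the 8 PC FTAZ:IT-M and PC Control plants. It had 31.2, 56.0, 37.8 and 21.8 CPM in PC FTAZ:IT-M, against 8.42, 10.03, 19.8 and 15.1 CPM in PC Control. The lowest filter plant was only slightly above the highest control plant, at a log2 fold change of 1.52 (SE 0.28, adjusted p = 0.00154, edgeR) and an adjusted p of 0.0527 with these 2 groups alone. LOC111898815 rose to 269.9, 434.6, 243.0 and 315.7 CPM in PC FTAZ:IT-M, against 136.2, 163.0, 195.0 and 180.1 CPM in PC Control (0.96, SE 0.22, adjusted p = 0.00909). Without PC FTAZ:IT-M replicate 2 its adjusted p was 0.0653.

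LOC111914470 was also called higher behind FTAZ:IT-M (1.44, SE 0.37, adjusted p = 0.0189, edgeR), with 0.717 ± 0.347 CPM in PC FTAZ:IT-M and 0.274 ± 0.0606 CPM in PC Control. That call was lost without PC FTAZ:IT-M replicate 3 (adjusted p = 0.0919), without PC Control replicate 2 (0.054) and with these 2 groups alone (0.092). LOC111897810 was called higher as well (1.22, SE 0.36, adjusted p = 0.035), with 1.53 ± 0.303 CPM in PC FTAZ:IT-M and 0.686 ± 0.443 CPM in PC Control (SD, n = 4 each). Its call was lost without PC FTAZ:IT-M replicates 2 and 3 (adjusted p = 0.117 and 0.0859), without PC Control replicates 2, 3 and 4 (0.109, 0.056 and 0.107), and with these 2 groups alone (0.124).

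Behind FTAZ:PCBM the members moved in 2 directions. The test called 3847 of 24483 genes against PC Control (15.7%, with 9.31% higher and 6.4% lower) and 64 members (32%). In the higher list 19 members fell (30.6%) and 1 rose (1.61%), and in the lower list 43 rose (31.2%) and 1 fell (0.725%). Median log2 fold changes were −0.24 in the higher list and 0.20 in the lower list, against −0.02 over all tested genes. Values below 0 were found in 54 of 62 higher members, and values above 0 in 102 of 138 lower members. With a mean of 5 CPM or more required, 24% of 15962 genes were called (13.7% higher and 10.3% lower). Of the 165 members left by that requirement, 36.4% were called, so the excess among members was smaller. With the rule not reading the PC plants, 17 genes of the higher list fell (28.3%) and 1 rose, and 41 genes of the lower list rose (29.3%) and 1 fell. Without PC Control replicate 3 the calls dropped to 38 members and 8.83% of genes, with 11 higher members lower and 26 lower members higher. The number of members called lay between 38 and 59 over the 8 plants left out in turn.

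**Figure D4:**
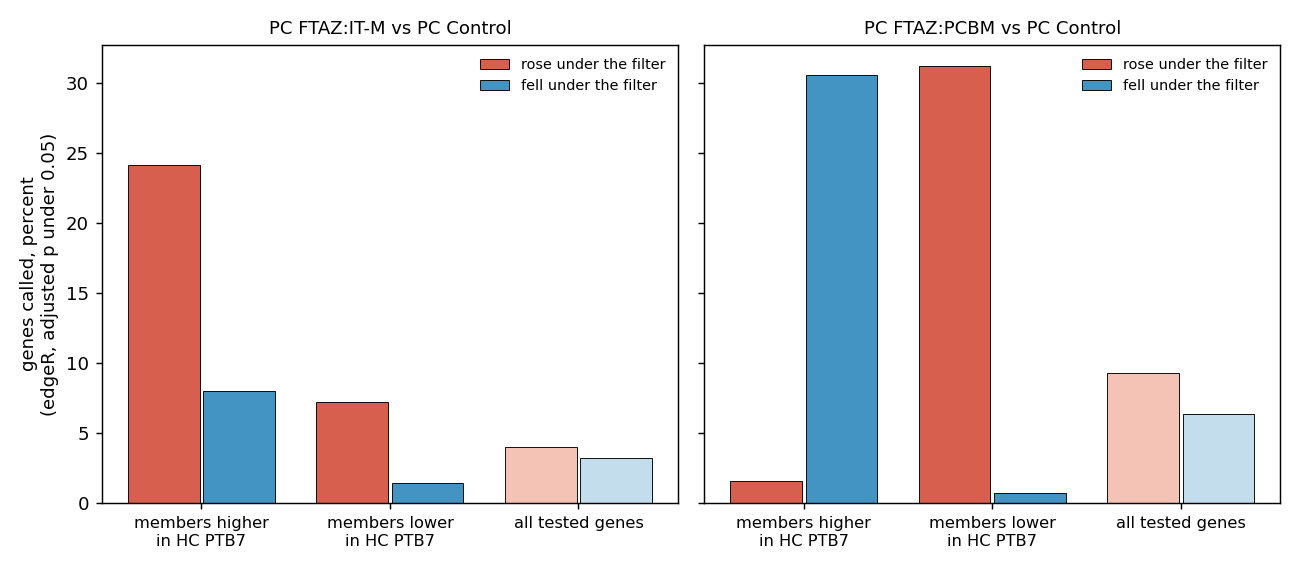
Bars give the percentage of the 62 higher members, the 138 lower members and the 24483 tested genes that rose (red) or fell (blue) in PC FTAZ:IT-M (left) and PC FTAZ:PCBM (right) against PC Control, at an edgeR adjusted p under 0.05. Behind FTAZ:PCBM 30.6% of higher members fell and 31.2% of lower members rose, against 6.4% and 9.31% of all tested genes. Among tested genes with a mean of 5 CPM or more, 10.3% fell and 13.7% rose there.

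Gene length moved with these calls. The exonic length had a median of 2882 bases in the 43 lower members that rose behind FTAZ:PCBM and 1631 bases in the lower members not called. In the higher list the median was 1151 bases in members that fell there and 1821.5 bases in those not called. No length is given here for all genes called behind FTAZ:PCBM. Over all members, the median was 1674 bases in the higher list and 2018 bases in the lower list, against 1635 bases over the 20224 genes. In a fit with an offset for length, FTAZ:PCBM called 1386 genes (5.66%, with 3.47% higher and 2.19% lower) and 29 members. In the higher list 11 members fell and 1 rose, and in the lower list 17 members rose. The direction of the calls was the same in that fit, and the part of length in them was not tested further.

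LOC111882643, with the widest HC gap of all members, rose behind FTAZ:PCBM. It had 121.0, 184.4, 219.2 and 185.3 CPM in PC FTAZ:PCBM, against 69.9, 101.0, 102.7 and 94.7 CPM in PC Control. The groups did not overlap, and the log2 fold change was 0.96 (SE 0.17, adjusted p = 0.000408, edgeR). LOC111913734 rose likewise, with 1633, 1379, 2096 and 2250 CPM in PC FTAZ:PCBM against 568.8, 1126, 912.5 and 1092 CPM in PC Control (1.00, SE 0.21, adjusted p = 0.00208). In the HC experiment LOC111882643 and LOC111913734 stood at 141 ± 18.5 and 1013 ± 37.1 CPM behind PTB7-Th:IEICO-4F, against 401 ± 30.8 and 1846 ± 181 CPM behind FTAZ:PCBM (SD, n = 4 each).

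LOC111897754 had the largest called rise behind FTAZ:PCBM among members with a mean of 1 CPM or more over the 8 plants compared. It had 3.34, 2.79, 9.18 and 5.53 CPM in PC FTAZ:PCBM, against 0.329, 2.05, 0.812 and 1.76 CPM in PC Control (2.09, SE 0.48, adjusted p = 0.00402, edgeR). LOC111901018 had 1.44, 2.28, 2.17 and 2.61 CPM in PC FTAZ:PCBM, against 0.801, 0.738, 0.542 and 0.975 CPM in PC Control (1.49, SE 0.33, adjusted p = 0.00293). Neither gene overlapped between the groups. LOC111905572 was called higher in both FTAZ comparisons, at 1.72 (SE 0.46, adjusted p = 0.021) behind FTAZ:IT-M and 1.54 (SE 0.46, adjusted p = 0.0218) behind FTAZ:PCBM. It had 0.661, 1.601, 0.456 and 1.59 CPM in PC FTAZ:IT-M and 0.7002, 1.10, 0.866 and 1.22 CPM in PC FTAZ:PCBM, against 0.637, 0.123, 0.375 and 0.208 CPM in PC Control.

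The LOC111905572 calls were lost without single plants, while its log2 fold change stayed between 1.43 and 2.22 behind FTAZ:IT-M and between 1.27 and 2.03 behind FTAZ:PCBM over the plants left out in turn. Behind FTAZ:IT-M its adjusted p was 0.0994 without PC FTAZ:IT-M replicate 2, 0.0767 and 0.0635 without PC Control replicates 2 and 4, and 0.112 with these 2 groups alone. Behind FTAZ:PCBM it was 0.0504 without PC FTAZ:PCBM replicate 2, 0.0773 and 0.0687 without PC Control replicates 2 and 4, and 0.0626 with the length offset. The single lower member that fell behind FTAZ:PCBM, LOC111914190 (NW_019676738.1:5269695-5271370, minus strand), had 9.47, 17.4, 12.1 and 14.0 CPM in PC FTAZ:PCBM against 33.1, 16.7, 32.8 and 16.1 CPM in PC Control. The groups overlapped, and the call (−0.89, SE 0.24, adjusted p = 0.0127) was lost without PC Control replicate 3 (adjusted p = 0.0731), without PC FTAZ:PCBM replicate 1 (0.0597) and with the length offset (0.0556).

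Higher members that fell behind FTAZ:PCBM included LOC111901323, with 319.1, 225.8, 280.1 and 287.8 CPM in PC FTAZ:PCBM against 595.8, 550.6, 500.6 and 271.3 CPM in PC Control (−0.77, SE 0.20, adjusted p = 0.0106, edgeR, and 0.0503 with the length offset). PC Control replicate 4 lay among the filter plants. LOC111897682 had 13.3, 12.97, 12.7 and 11.95 CPM in PC FTAZ:PCBM, against 16.0, 17.7, 18.4 and 15.6 CPM in PC Control (−0.40, SE 0.11, adjusted p = 0.0139, and 0.0721 without PC Control replicate 3). LOC111900546 fell behind this filter too, to 19.1, 14.8, 14.2 and 14.95 CPM in PC FTAZ:PCBM (−0.84, SE 0.24, adjusted p = 0.0155), a call lost without PC Control replicate 1 (0.0548) and with the length offset (0.0822).

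The single higher member that rose behind FTAZ:PCBM was LOC111918867 (NW_019677657.1:590875-591030, plus strand). It is 156 bases long and is annotated as a ribosomal RNA gene in the Lsat_Salinas_v11 table, and it was counted here in libraries selected for poly-A tails. It had 8.63, 7.88, 7.34 and 7.21 CPM in PC FTAZ:PCBM, against 6.76, 4.86, 5.81 and 5.29 CPM in PC Control (0.46, SE 0.14, adjusted p = 0.0218, edgeR). The groups did not overlap, but the call was lost without PC Control replicates 2 or 4 (adjusted p = 0.08 and 0.0571) and without PC FTAZ:PCBM replicate 1 (0.0759).

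The 2 FTAZ comparisons share the PC Control plants, so their values are set side by side without a test of one against the other. LOC111908039 was singled out after its values were seen (NW_019675028.1:3245863-3248071, plus strand, 898 exonic bases). It had 59.5, 50.9, 43.5 and 39.7 CPM in PC FTAZ:IT-M and 10.7, 17.5, 12.99 and 14.1 CPM in PC FTAZ:PCBM, against 25.3, 23.7, 26.1 and 22.1 CPM in PC Control. The 3 groups did not overlap, with log2 fold changes of 1.04 (SE 0.13, adjusted p = 1.55e-05, edgeR) and −0.80 (SE 0.13, adjusted p = 0.000206). LOC111904241, also singled out so, had log2 fold changes of 0.78 behind FTAZ:IT-M and −0.74 behind FTAZ:PCBM.

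No symbol beyond a locus number was listed for any member. The Lsat_Salinas_v11 gene table of RefSeq matched 197 of the 200 and gave 192 as protein-coding, 4 as long non-coding RNA and 1 as ribosomal RNA. By list, 99.3% of lower members and 88.7% of higher members were protein-coding, against 91.8% of the 20224 genes. The members lay on 177 scaffolds, and 4 of them overlapped another listed gene. A single pair of members were direct neighbours, LOC111905442 (NW_019674383.1:5205338-5206840) and LOC111905405 (NW_019674383.1:5241364-5243212), both on the plus strand and both higher behind the filter.

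That both were higher there is fixed by the rule. LOC111905405 had 69.9, 82.6, 84.4 and 76.7 CPM in HC PTB7-Th:IEICO-4F, against 41.7, 50.6 and 67.9 CPM as the lowest, median and highest of the other HC plants. LOC111905442 had 15.7, 20.2, 18.99 and 16.1 CPM in HC PTB7-Th:IEICO-4F, against 10.1, 12.1 and 13.7 CPM in the other HC plants. Behind FTAZ:PCBM both were called lower, LOC111905405 at −0.25 (SE 0.07, adjusted p = 0.0224, edgeR) and LOC111905442 at −0.42 (SE 0.10, adjusted p = 0.00558). The first of these calls was lost without PC Control replicates 2, 3 or 4 (adjusted p = 0.0581, 0.0571 and 0.0729) and without PC FTAZ:PCBM replicates 2 or 4 (0.0855 and 0.0661). Behind FTAZ:IT-M, LOC111905442 was called higher at 0.32 (SE 0.10, adjusted p = 0.0442), with adjusted p between 0.0599 and 0.17 without each of 6 plants in turn, 0.054 with the replicate number as a block, 0.0541 with no filter on low counts and 0.13 with these 2 groups alone. LOC111905405 was not called there, at 0.21 (SE 0.07, adjusted p = 0.0729).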

How the data were processed

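Leaf poly-A RNA was sequenced from 32 plants, 4 in each of 8 groups, and groups and replicate numbers were taken from the labels. The deposited values are raw counts of reads per gene, which the authors made with featureCounts 2.0.1 over exons of the RefSeq annotation of Lsat_Salinas_v7, per the file headers. FastQC, HISAT2 and DESeq2 are also named in the submitters' processing notes, and no version is given for them in the sources used here. The headers show no option for strand, multi-mapping reads or read pairs.

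CPM was computed from each column's total, and the members followed the rule given in the opening. Genes were tested with edgeR 4.0.16 (limma 3.58.1, R 4.3.3): filterByExpr (minimum count 10, minimum total count 15), TMM scaling, 1 model with a mean per group over 32 plants, and the quasi-likelihood F-test, with Benjamini-Hochberg adjustment over 24483 genes. The procedure was checked on simulated counts. These were drawn without a trend by gene length or a box effect, so the check does not bear on either. DESeq2 1.42.0 was an alternative. No 2 replicates agreed within sampling noise, and the lowest chi-square per degree of freedom over 48 replicate pairs was 11.0. Floors cover counting error only. The labels give a group and a replicate number only, and each replicate was taken as a separate plant throughout.

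The members and the choice of comparisons were made with earlier results of these data known. Named genes are the 10 largest differences and the 3 highest levels of each list, the largest called rise and fall in each FTAZ comparison among members with a mean of 1 CPM or more over its 8 plants, neighbouring members, and genes at the limit of 200. LOC111899617, LOC111908039, LOC111904241, LOC111906903 and LOC111918867 were added after their values were seen. Protein and promoter sequences and leaf marker genes were not analysed here.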

Additional observations from a re-analysis of the deposited data

Results flagged for a closer look

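In 4 of the 35 named members all PTB7-Th:IEICO-4F plants moved one way in HC and the opposite way in PC. LOC111899617 and LOC111906903 had been named after their values were seen, so this count is no measure of frequency. Among all members, such separations were found in 9.68% of higher and 5.07% of lower ones. Over the 20224 genes, PC PTB7-Th:IEICO-4F lay wholly below PC Control in 6.12% and wholly above it in 9.56%. For LOC111904766 the difference of mean log2(CPM + 0.1) was 0.90 against the other HC plants and −0.468 against PC Control. For LOC111907130 the differences were 0.82 and −0.667, for LOC111899617 0.47 and −0.310, and for LOC111906903 −0.77 and 0.414. The difference between the experiments was not tested.

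Single plants stood far from their group in 12 of 280 combinations of a named member and a group, where chance gives about 14. The measure was Dixon's ratio, the gap to the nearest plant over the range of the 4 plants, above its 95% critical value. In HC FTAZ:IT-M, replicate 3 was low for LOC111901323 (ratio 0.968, 141.6 CPM) and for LOC111906383 (0.893, 41.5 CPM). Replicate 2 of that group was high for LOC111907470 (0.888, 13.4 CPM), LOC111897810 (0.836, 2.88 CPM) and LOC111898815 (0.834, 423.4 CPM). In HC Control, replicate 4 was low for LOC111898815 (0.939, 294.7 CPM) and replicate 2 high for LOC111905442 (0.967, 13.7 CPM). In HC PTB7-Th:IEICO-4F, replicate 3 was high for LOC111897682 (0.836, 12.8 CPM). In PC FTAZ:PCBM, replicate 1 was high for LOC111900546 (0.848, 19.1 CPM) and LOC111904766 (0.855, 1221 CPM), and replicate 3 for LOC111907130 (0.861, 3.57 CPM). In PC PTB7-Th:IEICO-4F, replicate 1 was high for LOC111904241 (0.922, 44.1 CPM).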

How the results depend on the processing

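No direction was reversed under the alternatives run, among the named members' HC differences and the log2 fold changes called in the main fit. For the HC differences the rule fixed this whenever a plant was left out or the pseudocount changed. The log2 fold changes were followed because they had been called. The lack of reversals is thus no measure of robustness. Other genes were not followed. Of 474 such log2 fold change entries, 394 kept their call and 80 lost it. With an absolute log2 fold change of 1 or more, 194 genes and 8 members were called behind FTAZ:IT-M, and 171 genes and 6 members behind FTAZ:PCBM. With only the 2 groups compared in the model, FTAZ:IT-M called 469 genes and 10 members. With the length offset, FTAZ:PCBM called 1386 genes and 29 members. Leaving out 1 plant at a time gave 740 to 3489 genes and 18 to 39 members behind FTAZ:IT-M, and 2177 to 4308 genes and 38 to 59 members behind FTAZ:PCBM. Counts of genes moved by over 1.5 times without PC FTAZ:IT-M replicates 1 to 4 (1143, 740, 809 and 3489) and PC Control replicates 1 and 2 (778 and 1030), and for FTAZ:PCBM without its replicates 1 and 2 (2287 and 2513) and PC Control replicate 3 (2177). The rule passed 510 genes with all plants and 726 to 962 without 1 HC PTB7-Th:IEICO-4F plant, since 3 plants separate more easily than 4. Of the 200 genes then kept, 106 to 155 were members. With TMM scaling 151 were, and with a CPM floor of 5 or with no floor 163 were. These overlaps differ in kind. With TMM scaling only 166 of the 200 members still passed the rule, and with a floor of 5 only 163 did. With no floor all 200 passed, and some were displaced in rank. The cause of the changes in called counts was not tested. DESeq2's Wald test called 36 members behind FTAZ:IT-M (10.3% of genes) and 66 behind FTAZ:PCBM (18% of genes), and its size factors within edgeR called 32 (7.33% of genes) and 64 (15.7% of genes). With the rule not reading the PC plants, an alternative chosen after seeing the data, 32 and 60 genes of the 200 were called. With the replicate number as a block, 1680 genes and 31 members were called behind FTAZ:IT-M and 3793 genes and 62 members behind FTAZ:PCBM. Same-numbered plants correlated between −0.12 and 0.19, and of the 4 numbers replicate 1 alone correlated best with its own in each comparison. Such weak values cannot settle whether the numbers pair the plants, and only the 2 PC comparisons were checked.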
